A study of Mus musculus with 18 samples.

Results

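Libraries primed with random hexamers alone (N6, 3 libraries) were compared with libraries primed with oligo(dT) alone (dT, 3 libraries), which are 6 of the 18 libraries of the series. The members were taken from the reverse transcription primer given in the labels, with no use of measured values. Both groups were made from the same material, purified total RNA of 5G6GR mouse embryonic stem (ES) cells diluted to 10 pg per reaction. The cells were grown without feeders in serum and leukemia inhibitory factor, with puromycin and blasticidin in the medium. 5G6GR is a single ES cell line that carries an inducible Gata6 fusion, so counts of Gata6 do not separate the transgene from the endogenous gene. All 6 libraries were made by RT-RamDA, in which cDNA is nicked and displaced while the RNA template is still being copied, followed by 17 cycles of PCR. The remaining 12 libraries are the N6dT, not-so-random (NSR) and NSRdT primer sets at 10 pg, and 3 rRNA-depleted libraries from 200 ng. Each replicate is a separate reaction on diluted RNA, and nothing in the labels says that the dilutions came from separate cultures, so p-values measure the spread between reactions.

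Reverse transcriptase needs a primer. Oligo(dT) anneals to runs of A, chiefly the poly(A) tail that most mRNAs carry, so copying starts at the 3′ end, while a random hexamer can anneal anywhere along any RNA. Ribosomal RNA, most small nuclear and nucleolar RNAs and the mRNAs of the replication-dependent histones end without a poly(A) tail, the histone mRNAs in a conserved stem-loop instead.

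The deposited estimated counts, summed per gene, came to between 7625252 and 7666447 in the N6 libraries and between 9991575 and 10134741 in the dT libraries. Of 47643 genes, 15646 passed the filter on low counts and were tested with edgeR's quasi-likelihood test. Of these, 1154 were higher with N6 (7.38%) and 809 were lower (5.17%) at a Benjamini-Hochberg adjusted p under 0.05, together 12.5%. All 3 N6 values lay above or below all 3 dT values in 4577 genes, 29.3% of those tested. Levels below are CPM after TMM scaling, and every fold change is a log2 difference of N6 minus dT on that scale, with its standard error (SE). The median log2 fold change of all tested genes was 0.14, and scaling to library totals instead moved it to -0.95, so a difference is relative to the scaling used. Spearman correlations of 2 libraries over protein-coding genes at 10 CPM or more were between 0.82 and 0.83 within N6, between 0.77 and 0.78 within dT, and between 0.61 and 0.62 across the groups.

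Several groups of RNAs that end without a poly(A) tail were higher with N6. Sequence at or near the 3′ end is shown for several of them, to set the 1 histone with a long A run, Hist1h2ap, beside the others. The reference sequences are GENCODE vM21 transcripts (GRCm38), written 5′ to 3′ on the RNA's own strand, and capitals mark the motif CTTTTNAG, which forms part of the stem-loop, and any run of 12 or more A. Hist1h3b, Hist1h2bf and Hist1h4f were picked for display after their values were seen.
Rpph1, last 30 bases, chromosome 14: ataacccaattcagactactctcccccgcc
Rmrp, last 30 bases, chromosome 4: caaccacacggggctcattctcagcgcggc
Rn7sk, last 30 bases, chromosome 9: ggcgctgcatgtggcagtctgcctttcttt
Hist2h2aa1, chromosome 3: cgagctcctaaaaaggctCTTTTCAGagcc
Hist1h3b, chromosome 13: aactggaacccaaaggctCTTTTCAGagcc
Hist1h2bf, chromosome 13: actcctaacccaaaggctCTTTTCAGagcc
Hist1h4f, chromosome 13: gcttctttctcaaaggccCTTTTCAGggcc
Hist1h2ap, chromosome 13: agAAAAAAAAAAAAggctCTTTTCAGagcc

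Among small RNAs made without a poly(A) tail, 9 of the 20 tested were higher with N6 (background 7.38%) and 0 were lower. The other 11 were not called. The median log2 fold change was 4.20, and 5 of the 20 lay below 0, the lowest at -1.53. Rpph1, the RNA of RNase P, which trims the 5′ ends of tRNA precursors, had 614, 644 and 739 CPM in N6 libraries, against 0.517, 0.0625 and 0 CPM in dT libraries. The log2 fold change was 11.66 ± 0.51 (SE; adjusted p = 1.36e-10), and its size rests on very few counts in the dT libraries, 1 of which had none. Rmrp, the RNA of the related RNase MRP, which cleaves rRNA precursors, had 530, 638 and 654 CPM in N6 libraries, against 14.4, 10.1 and 11.5 CPM in dT libraries. Rn7sk, which holds the elongation factor P-TEFb inactive, averaged 2741 ± 202 CPM with N6 and 219 ± 17 CPM with dT (SD, n = 3 each). The Rmrp difference was 5.66 ± 0.19 and the Rn7sk difference 3.65 ± 0.09 on the log2 scale, with no overlap between the groups. The signal recognition particle RNA Rn7s2 averaged 1699 ± 16.8 CPM with N6 and 224 ± 61.2 CPM with dT (log2 fold change 2.92 ± 0.15), and Rn7s1, a near-identical locus, carried the same counts.

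Small nucleolar and Cajal body RNAs guide the chemical modification of rRNA and snRNA. Of these, 10 of 36 tested were higher (background 7.38%) and 0 were lower. The median was 1.24, and 0.15 under scaling by library totals, and 11 of the 36 had a fold change below 0. Summed, the list took 0.00777% of counts with N6 and 0.00791% with dT, within the spread between libraries. Scarna10 had 10.5, 7.82 and 17.7 CPM in N6 libraries and no count in any dT library, which makes it at least 62.9-fold higher against a floor of 3 counts per library. Long non-coding host transcripts of these RNAs, which are spliced and polyadenylated, gave calls in both directions, with a median of -0.70. Of 17 tested, 3 were lower with N6 (background 5.17%), 2, Snhg7 and Snhg17, were higher (background 7.38%), and 12 were not called. Snhg17 lost its call without N6 replicate 1 or dT replicate 2 and under scaling by library totals. Gas5 averaged 106 ± 1.16 CPM with N6 and 185 ± 20.2 CPM with dT (log2 fold change -0.81 ± 0.17, adjusted p = 0.00530). Snhg1 averaged 75.4 ± 12.7 CPM with N6 and 155 ± 17.8 CPM with dT (log2 fold change -1.04 ± 0.20). Many snoRNAs lie within introns of host genes, and whether counts were assigned by strand is not given in the sources used here.

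Of the 63 replication-dependent histone genes tested, 49 were higher with N6 (background 7.38%) and 0 were lower, with a median log2 fold change of 4.94. With the 11 genes that had no count in any dT library set at their lower bounds, the median was 4.56. Summed over their genes, the linker histones H1, which bind DNA between nucleosomes, had 962, 1075 and 981 CPM in N6 libraries, against 23.6, 29.0 and 30.3 CPM in dT libraries. The nucleosome core families showed N6 to dT ratios of 33.5 for H2B, 28.5 for H3 and 14.9 for H4, but 3.18 for H2A. Many of these genes are near-identical in sequence, so counts of a single gene are uncertain, and the family sums are less so.

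The single genes named next were picked by fold change, abundance or p, and 14 of the 63 were not called. Hist1h1c averaged 198 ± 12.7 CPM with N6 and 2.09 ± 0.739 CPM with dT (log2 fold change 6.55 ± 0.29). Hist2h2aa1 had 163, 135 and 153 CPM in N6 libraries, against 2.07, 0 and 0 CPM in dT libraries. Hist1h2ai had 110, 84.0 and 81.6 CPM with N6 and no count in any dT library. Its estimated counts were thus at least 483-fold higher against a floor of 3 counts per library. The 381-base Hist2h2bb had 79.9, 67.3 and 66.5 CPM with N6 and likewise no count with dT, at least 374-fold higher against that floor. The floor does not cover how counts were divided among near-identical genes, so neither value bounds the difference of the gene itself.

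The low ratio of H2A came from 1 gene. Hist1h2ap had 141, 147 and 163 CPM in N6 libraries, against 184, 164 and 160 CPM in dT libraries, so the groups overlapped (log2 fold change -0.17 ± 0.18, adjusted p = 0.607). Under scaling by library totals it was called lower, at -1.28. It was the only gene of the list with a fold change below 0, and without it the H2A ratio was 14.5 instead of 3.18. Its reference transcript, printed above, holds a run of 12 A that ends 19 bases before its end, just upstream of the motif. In the other 41 histone transcripts that could be matched to the reference the longest run was 7 A or shorter. Hist1h2ap was singled out after its values were seen, and the part of the A run in its level was not tested. The motif CTTTTNAG was present in the last 100 bases of 14 of the 42 matched histone transcripts (33.3%), against 1.18% of all 13101 matched transcripts, searched on the sense strand.

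Histone genes that are expressed outside S phase and polyadenylated gave the opposite pattern, with 5 of 11 lower with N6 (background 5.17%) and 0 higher (median -0.94). H2afz, which encodes the H2A.Z variant, had 95.9, 121 and 109 CPM in N6 libraries, against 541, 633 and 584 CPM in dT libraries (log2 fold change -2.43 ± 0.16). H3f3a, 1 of the genes for the H3.3 variant, averaged 162 ± 14.4 CPM with N6 and 465 ± 27.5 CPM with dT (log2 fold change -1.52 ± 0.13).

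**Figure D1:**
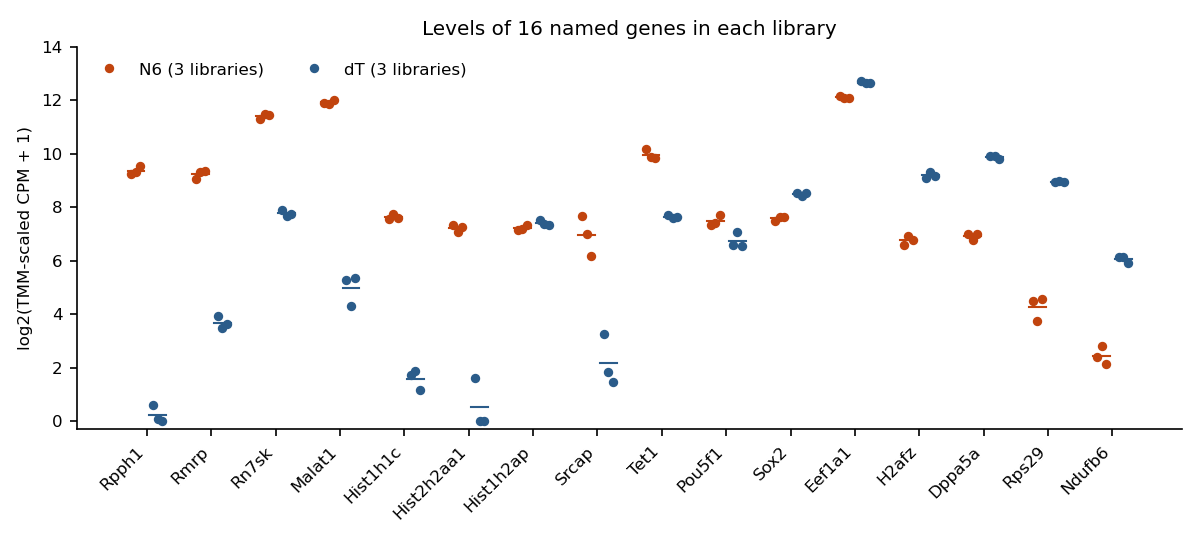
Levels of 16 named genes as log2(TMM-scaled CPM + 1), 1 point per library with N6 left of dT and a bar at the mean. Rpph1, Malat1, Hist1h1c and Hist2h2aa1 stand far higher with N6, the groups overlap for Hist1h2ap, and Rps29, Ndufb6 and Dppa5a are lower with N6.

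Long RNAs kept in the nucleus were also higher with N6, 7 of 15 tested (background 7.38%), with 0 lower and a median of 2.159. Malat1, an abundant RNA of nuclear speckles whose 3′ end is formed by RNase P cleavage and protected by a triple helix, had 3848, 3752 and 4104 CPM in N6 libraries, against 38.0, 18.7 and 39.8 CPM in dT libraries. Its log2 fold change was 6.92 ± 0.23 (adjusted p = 3.69e-12). A run of 12 A lies in the Malat1 transcript 298 bases from its end on chromosome 19, and is shown here in capitals to set it beside that of Hist1h2ap.
Malat1: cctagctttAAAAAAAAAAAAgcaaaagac
Neat1, which scaffolds paraspeckles and is processed in the same way in its long form, averaged 230 ± 58.3 CPM with N6 and 51.6 ± 14.3 CPM with dT (log2 fold change 2.159 ± 0.216). Kcnq1ot1, the imprinted antisense RNA of the Kcnq1 domain, had 230, 330 and 395 CPM with N6, against 37.5, 34.5 and 48.9 CPM with dT. Rian, a maternally expressed imprinted RNA that hosts snoRNAs, averaged 242 ± 29.3 CPM with N6 and 26.3 ± 11.1 CPM with dT. The 3 N6 libraries lay above the 3 dT libraries for each of these 4 RNAs.

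Ribosomal RNA took a large part of the N6 libraries. Entries annotated as rRNA held 19.2 ± 0.341% of all counts with N6 and 0.277 ± 0.0162% with dT, and mitochondrial rRNA held 11.7 ± 0.0373% with N6 and 5.95 ± 0.195% with dT. Both mitochondrial rRNAs were higher with N6, but by very different amounts. The small one, mt-Rnr1, averaged 63960 ± 764 CPM with N6 and 321 ± 40.8 CPM with dT (log2 fold change 7.64 ± 0.08). The large one, mt-Rnr2, averaged 97060 ± 696 CPM with N6 and 37690 ± 1277 CPM with dT (log2 fold change 1.36 ± 0.03). A further 7 loci with very large counts, chosen after the data were seen (Gm42418, Gm26917, Gm15564, Lars2, Mir6236, AA474408 and Gm15662), held 33.9 ± 0.687% with N6 and 17.3 ± 0.629% with dT. Their make-up differed between the groups: Gm42418 had 248653, 264686 and 261066 CPM with N6 against 3581, 3424 and 3354 CPM with dT, while Lars2 differed by 0.28 on the log2 scale, which turned to -0.82 under scaling by library totals. All other genes shared 33.6 ± 0.413% of the counts with N6 and 73.1 ± 0.709% with dT, and 87.2% in the rRNA-depleted 200 ng libraries.

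Shares of the annotated classes of transcript depended on these loci. Protein-coding entries held 35.5 ± 0.189% of all counts with N6 and 81.1 ± 0.173% with dT. Among the counts left after rRNA, mitochondrially encoded genes and the 7 loci were taken out, they held 73.4 ± 0.213% with N6 and 84.3 ± 0.187% with dT. Retained-intron entries held 2.21 ± 0.00930% of all counts with N6 and 2.88 ± 0.0904% with dT, but of the remaining counts 6.59 ± 0.0731% with N6 and 3.94 ± 0.0871% with dT, so their direction turned with the denominator. The same held for antisense entries, at 0.217 ± 0.00861% of all counts with N6 and 0.262 ± 0.00355% with dT, and at 0.536 ± 0.0224% of the remaining counts with N6 and 0.221 ± 0.00694% with dT. The N6 and dT libraries did not overlap in any share named here, and an exact two-sided permutation test of 3 against 3 gave p = 0.1 for each, the smallest p it can give, and 0.105 (all counts) after adjustment over 20 classes.

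**Figure D2:**
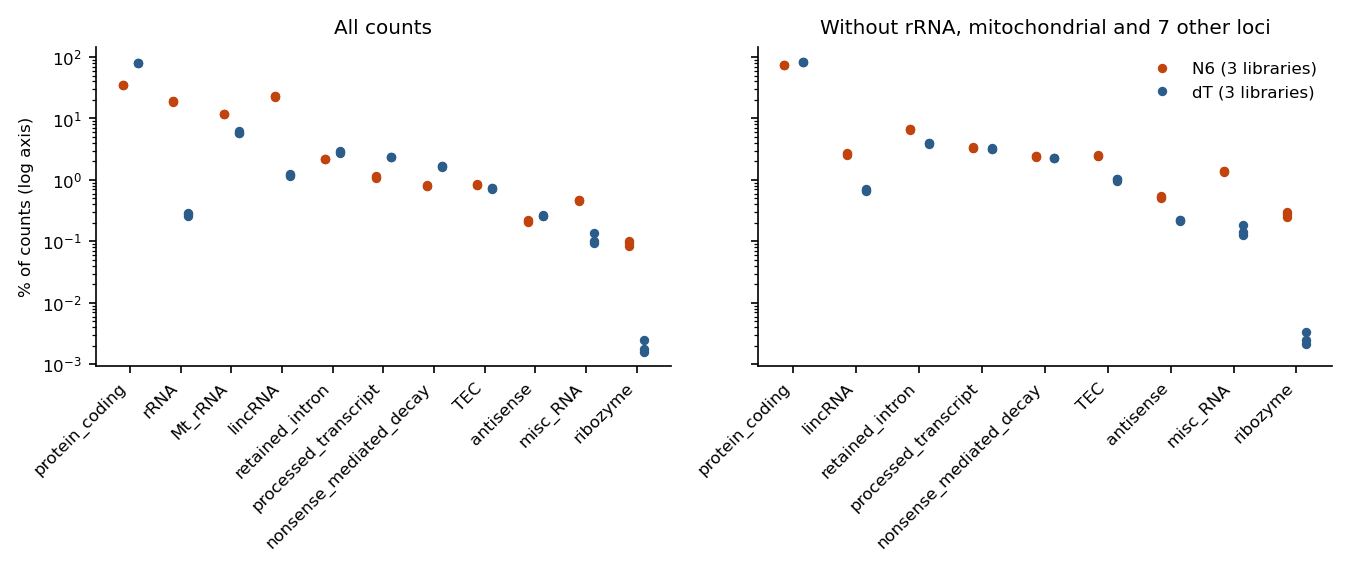
Percentage of counts by annotated transcript class on a log axis, 1 point per library with N6 left of dT, over all counts and over the counts left when rRNA, mitochondrially encoded genes and 7 abundant loci are taken out. Protein-coding entries are lower with N6 on both sides (35.5% against 81.1%, and 73.4% against 84.3%), and retained-intron entries change sides.

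Over genes, 3 non-coding classes were shifted upward with N6, beside backgrounds of 7.38% higher and 5.17% lower among all tested genes. Of 551 lincRNA genes tested, 71 were higher (12.9%) and 1 was lower, with a median log2 fold change of 1.26. Of 401 antisense genes, 42 were higher (10.5%) and 1 was lower (median 1.68). Of 807 genes of the class TEC, transcripts awaiting experimental proof, 128 were higher (15.9%) and 4 were lower (median 2.19). Scaling to library totals left these 3 medians above 0, at 0.16, 0.58 and 1.10. Of 12517 protein-coding genes 753 were higher (6.02%) and 743 were lower (5.94%), both shares near the backgrounds. Their median of -0.02 became -1.13 under scaling by library totals. The 35 tested genes of the snRNA class, whose RNAs also end without a poly(A) tail, had a median of 0.08.

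More genes were detected with N6. Thinned to 7624975 counts each, the libraries held 18020, 17738 and 17920 genes with at least 1 count with N6, against 16212, 15690 and 15986 with dT (exact two-sided permutation test, p = 0.1, the smallest possible). Without thinning, the means were 17897 with N6 and 16254 with dT. After rRNA, mitochondrially encoded genes and the 7 loci were taken out and the rest thinned to 2541632 counts, the means were 17798 ± 133 with N6 and 14996 ± 216 with dT. At that depth 682 genes had a count in all 3 N6 libraries and in no dT library, and 86 had the reverse. Of those seen with N6 alone, 262 were protein-coding, 103 TEC, 66 processed pseudogene, 57 lincRNA, 55 antisense and 29 snoRNA genes. Of those seen with dT alone, 54 were processed pseudogenes and 26 protein-coding genes. Seen with both primers were 8662 protein-coding, 193 TEC, 262 processed pseudogene, 171 lincRNA, 76 antisense and 15 snoRNA genes. For processed pseudogenes, intronless copies of mRNAs, detection did not differ beyond the spread, at 1182 ± 10.7 with N6 and 1187 ± 16.1 with dT.

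Among protein-coding genes the difference followed transcript length. Without the replication-dependent histones, the median log2 fold change was -0.95 for the 160 genes whose main transcript was under 500 bases and -1.14 for the 937 genes of 500 to 1000 bases. It then increased bin by bin, through -0.18 at 2000 to 3000 bases, 0.43 at 4000 to 6000 bases and 1.13 at 8000 to 12000 bases, to 1.57 for the 103 genes over 12000 bases. Of those 103, 51 were higher with N6 (49.5%, against 7.38% of all tested genes) and 0 were lower, whereas of the 937 genes of 500 to 1000 bases 17 were higher and 233 were lower (24.9%, against 5.17%). Spearman's rho between length and log2 fold change was 0.41 across these genes and 0.62 across the 6786 protein-coding genes at 10 CPM or more, where genes share libraries and are not independent replicates. Across 2061 long non-coding and TEC genes rho was 0.10, and the median was above 1 in every length bin.

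The counts themselves were spread accordingly. Of counts on protein-coding entries, with mitochondrial genes and the 7 loci left out, transcripts over 12000 bases took 3.33%, 3.01% and 3.13% in N6 libraries, against 0.742%, 0.728% and 0.749% in dT libraries. Transcripts of 500 to 1000 bases took 7.11%, 7.14% and 7.25% with N6, against 12.89%, 12.60% and 12.45% with dT. The groups did not overlap in either bin. The 200 ng rRNA-depleted libraries, which differ in input, kit and PCR as well, had 2.51% over 12000 bases and 9.19% at 500 to 1000 bases, between the 2 groups in both. Weighted by counts, the mean transcript length was 4266, 4207 and 4262 bases with N6, against 3006, 3016 and 3046 bases with dT (exact permutation test, two-sided p = 0.1, the smallest possible).

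Within genes no such lengthening was seen. In 5371 protein-coding genes at 10 CPM or more with several annotated transcripts, the count-weighted transcript length was greater with N6 in 2000 genes (37.2%), and the median log2 ratio was -0.03. In the same genes, retained-intron entries held 9.19 ± 0.12% of the counts with N6 and 5.03 ± 0.0949% with dT. Nonsense-mediated decay entries held 3.26 ± 0.00831% with N6 and 2.85 ± 0.0259% with dT.

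**Figure D3:**
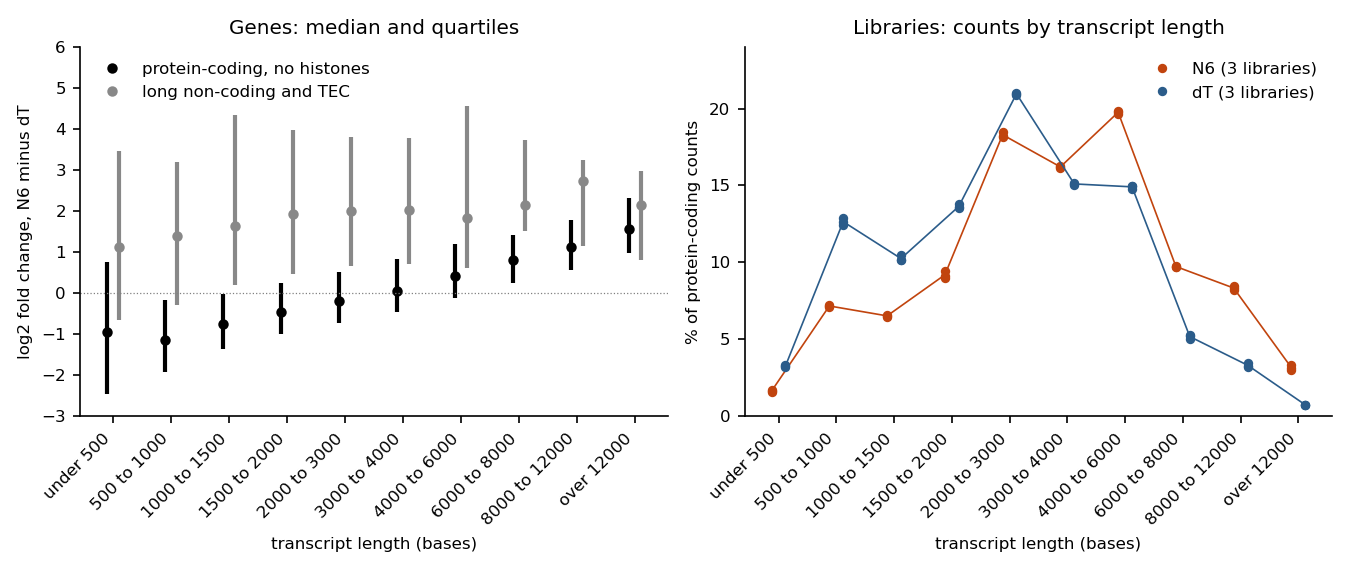
Left, median log2 fold change (N6 minus dT; points) and quartiles (lines) by transcript length for protein-coding genes without histones and for long non-coding and TEC genes. Right, percentage of protein-coding counts by transcript length, 1 point per library with N6 left of dT and lines through the means. The protein-coding median climbs from -1.14 at 500 to 1000 bases to 1.57 over 12000 bases.

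Short mRNAs of ribosomes and the respiratory chain were lower with N6. All 76 cytoplasmic ribosomal protein genes tested were lower (background 5.17%), with a median of -1.74 and a range from -4.73 for Rps29 to -0.70 for Rpl4. Rps29, a protein of the small subunit with a transcript of 390 bases, had 21.4, 12.4 and 22.9 CPM in N6 libraries, against 495, 506 and 498 CPM in dT libraries (log2 fold change -4.73 ± 0.29, adjusted p = 8.34e-09). Rplp2, an acidic protein of the large subunit's stalk, averaged 40.5 ± 6.87 CPM with N6 and 735 ± 43.1 CPM with dT (log2 fold change -4.18 ± 0.18). Rpl4, a large-subunit protein with a transcript of 1422 bases, averaged 997 ± 29.2 CPM with N6 and 1625 ± 95.6 CPM with dT. Spearman's rho between length and log2 fold change over the 76 genes was 0.45. These genes have many processed pseudogenes, with which counts may be shared. Together they took 0.956 ± 0.00553% of all counts with N6 and 6.73 ± 0.12% with dT.

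The ends of 4 such short transcripts are shown because each carries the poly(A) signal AATAAA, in capitals, close to its 3′ end.
Rps29, chromosome 12: caaagAATAAAaatgtgaagaactttaa
Rps21, chromosome 2: ttacaAATAAAagttttaagtacctgtgac
Rps28, chromosome 17: tgttaAATAAAgcatttatattaa
Dppa5a, chromosome 9: taaaaAATAAAattgaagtgattaaaa
AATAAA was present in the last 50 bases of 52.7% of the 13101 matched transcripts, searched on the sense strand. It was present in 68.5% of protein-coding genes lower with N6 (371 of 542, histones left out), in 62.1% of those higher with N6 (362 of 583) and in 61.6% of those not called. At 500 to 1000 bases the median log2 fold change was -1.41 for 365 genes with it and -0.66 for 383 genes without it. At 4000 to 6000 bases the medians were 0.43 with it and 0.51 without it, so the gap was widest among short transcripts. A run of 12 or more A occurred in 6.64% of protein-coding genes lower with N6 and in 12.0% of those higher, and longer transcripts held such runs more often.

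Of the nuclear-encoded subunits of respiratory complex I, 23 of 37 were lower with N6 (background 5.17%) and 0 were higher (median -1.89). Of complexes II to V, 37 of 40 were lower and 0 were higher (median -1.90). Ndufb6, a complex I subunit, had 4.27, 5.998 and 3.42 CPM in N6 libraries, against 70.0, 70.2 and 59.8 CPM in dT libraries (log2 fold change -3.87 ± 0.45). Atp5g3, which encodes the rotating c ring of ATP synthase, averaged 14.99 ± 2.31 CPM with N6 and 172 ± 18.7 CPM with dT. Atp5b, the longer transcript of the catalytic beta subunit, averaged 497 ± 15.96 CPM with N6 and 704 ± 13.1 CPM with dT (log2 fold change -0.50 ± 0.09). Over the 40 genes of complexes II to V, Spearman's rho between length and log2 fold change was 0.72.

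Other lists of housekeeping mRNAs leaned the same way, beside backgrounds of 5.17% lower and 7.38% higher among all tested genes. Of 25 genes with Snrp or Lsm symbols, listed together as Sm and Lsm proteins, 15 were lower. Snrpe had 14.9, 16.7 and 7.75 CPM with N6 against 132, 98.6 and 92.0 CPM with dT. Lsm14b, with a log2 fold change of 1.82, was the 1 gene of this list higher. Its call was lost when any library other than dT replicate 2 was left out. Of 37 proteasome subunits, 15 were lower and 0 higher (median -0.89), Psmb1 among them at -2.20 ± 0.25. Of 77 mitochondrial ribosomal proteins, 10 were lower, 0 were higher and 67 were not called (median -0.90). Of the 8 subunits of TRiC, the chaperonin that folds actin and tubulin, 6 were lower (median -0.62). Of translation initiation and elongation factors, 18 of 37 were lower and 1, Eif4g1, was higher (1.31, not called under scaling by library totals). Eef1a1, which brings aminoacyl-tRNA to the ribosome, had 4595, 4368 and 4374 CPM with N6, against 6742, 6434 and 6406 CPM with dT.

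Long mRNAs of chromatin and the cytoskeleton stood on the other side. Of 47 chromatin remodellers and coregulators, whose transcripts had a median length of 8815 bases, 23 were higher with N6 (background 7.38%) and 0 were lower, with a median of 1.14 that became 0.03 when libraries were scaled by their totals. Tet1, which oxidises 5-methylcytosine, had 1150, 943 and 917 CPM in N6 libraries, against 208, 195 and 200 CPM in dT libraries (log2 fold change 2.32 ± 0.10). Srcap, the ATPase that loads H2A.Z, had 202, 129 and 72.0 CPM with N6, against 8.60, 2.62 and 1.77 CPM with dT. The N6 values of Srcap were widely spread and all lay above the dT values.

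Of 22 giant cytoskeletal and motor proteins, 13 were higher with N6 and 1, Actn4, was lower, with a median of 1.09 that became -0.02 under scaling by library totals. Ahnak, a scaffold protein of the membrane skeleton with a transcript of 18099 bases, had 467, 263 and 320 CPM with N6, against 68.1, 53.7 and 73.9 CPM with dT. Dst, a linker between filament systems, averaged 479 ± 23.0 CPM with N6 and 169 ± 16.9 CPM with dT (log2 fold change 1.504 ± 0.169, not called under scaling by library totals). Of 308 zinc finger genes, 25 were higher, a share near the background of 7.38%, and 3 were lower (median 0.42, and -0.66 under scaling by library totals).

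**Figure D4:**
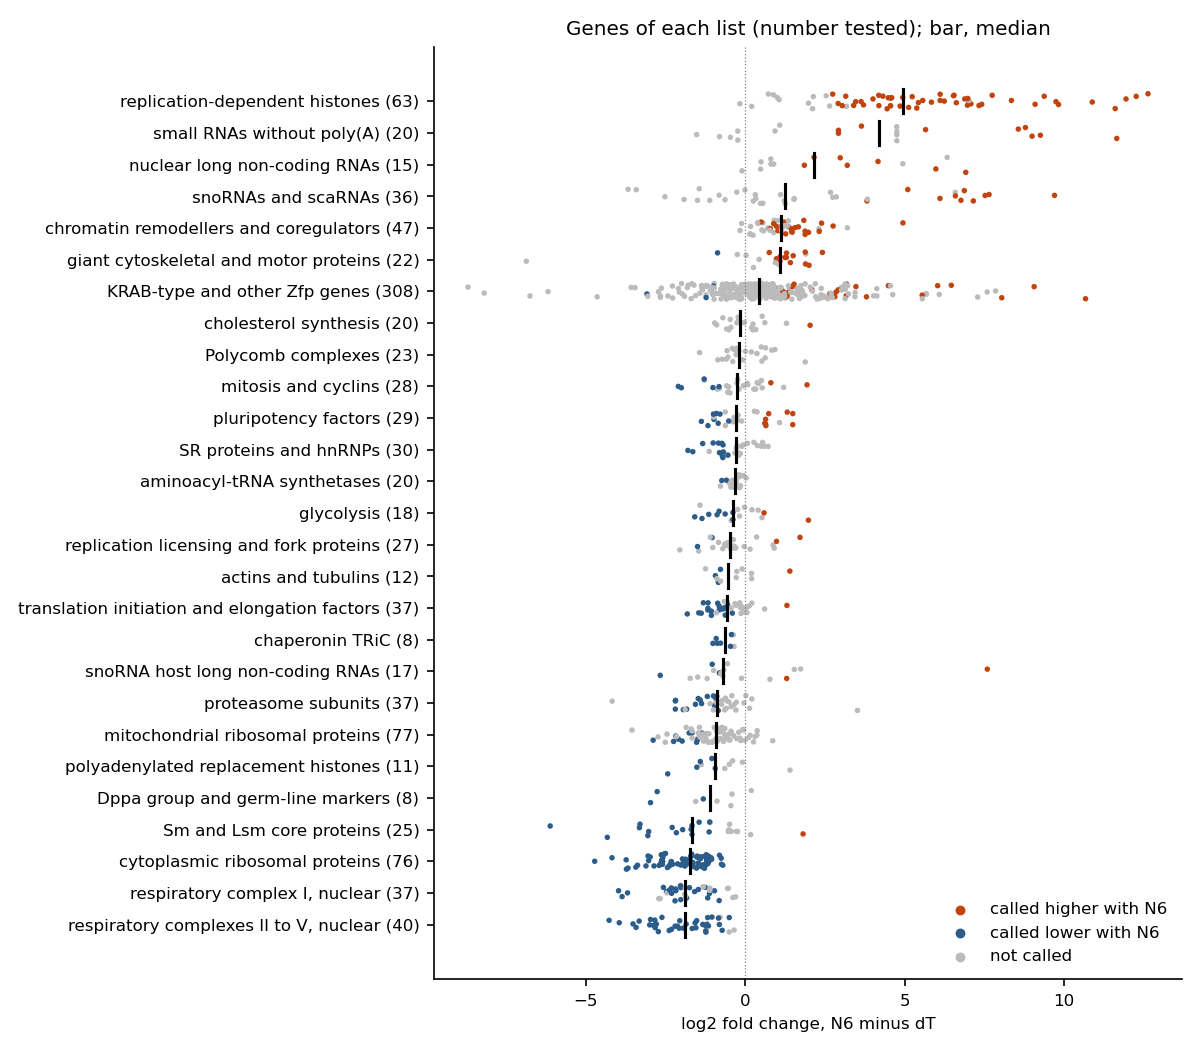
Log2 fold change (N6 minus dT) of each tested gene of 27 lists, ordered by median (bar), with the number tested in brackets. Red points were called higher with N6, blue points lower, grey points not called. Replication-dependent histones lie highest (median 4.94), and complexes II to V lie lowest (median -1.90).

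Other lists gave fewer calls or calls in both directions, beside backgrounds of 5.17% lower and 7.38% higher. Among mitosis genes and cyclins, 5 of 28 were lower and 2, Mki67 and Cenpf, were higher (Mki67, at 0.80, lost its call without N6 replicate 1 or 2 or dT replicate 2 or 3 and turned to -0.30 under scaling by library totals), and Spearman's rho between length and log2 fold change was 0.89 over the 28. Cks2, a small cyclin-dependent kinase subunit with a transcript of 692 bases, averaged 22.7 ± 5.21 CPM with N6 and 91.1 ± 17.5 CPM with dT. Of 27 replication proteins 2 were higher and 2 were lower, shares near the backgrounds of 7.38% and 5.17%. Among them Pola1, the catalytic subunit of DNA polymerase alpha, was higher (log2 fold change 1.72 ± 0.27, no longer called under scaling by library totals) and Pcna, the sliding clamp, was lower (-1.04 ± 0.20). Among 18 glycolysis genes, 8 were lower, led by Pgam1 at -1.59 ± 0.13, and 2, Hk1 and Pfkp, were higher. Both of these calls were lost without N6 replicate 1 or 2 or dT replicate 2, Hk1 also without dT replicate 3 and Pfkp also without dT replicate 1, and Pfkp turned to -0.52 under scaling by library totals. Of 30 SR proteins and hnRNPs, which act in splicing, 12 were lower (background 5.17%) and 0 higher. Of 20 aminoacyl-tRNA synthetases 2, Mars and Nars, were lower (background 5.17%), 0 were higher and 18 were not called. Nars lost its call when any library other than dT replicate 2 was left out, and Mars without N6 replicate 2 or dT replicate 3. In cholesterol synthesis 1 of 20 genes, the regulator Srebf2, was higher, a share no larger than the background of 7.38%, and 0 were lower. Other chromatin and cytoskeleton lists were not shifted upward. None of 23 Polycomb genes was called (median -0.20). Of 10 DNA methylation genes 1 was higher and 1 was lower (median 0.02). Of 12 actins and tubulins 1 was higher and 3 were lower (median -0.53).

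ES cell markers were detected with both primers, at 0.114% of counts with N6 and 0.456% with dT. Of 29 pluripotency factors, 8 were higher (background 7.38%) and 8 were lower (background 5.17%). Pou5f1, which encodes Oct4, had 161, 171 and 208 CPM in N6 libraries, against 96.8, 133 and 94.4 CPM in dT libraries (log2 fold change 0.74 ± 0.16, adjusted p = 0.00526), a direction that turned to -0.37 under scaling by library totals and a call that was lost in a fit of only the 6 libraries. Sox2 averaged 192 ± 10.2 CPM with N6 and 360 ± 12.1 CPM with dT (log2 fold change -0.90 ± 0.14). Nanog averaged 222 CPM with N6 and 263 CPM with dT, a difference that did not pass the test (adjusted p = 0.323) but was called lower under scaling by library totals, at -1.35. Klf5, a factor of self-renewal, was higher (1.49 ± 0.15 on the log2 scale), as was Rif1 (1.32 ± 0.16), a replication timing factor with a transcript of 8497 bases. Both were no longer called under scaling by library totals.

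Dppa5a, a small RNA-binding protein specific to pluripotent cells, had 126, 108 and 127 CPM with N6, against 966, 978 and 897 CPM with dT (log2 fold change -2.97 ± 0.12). Zfp42, the marker also called Rex1, averaged 258 ± 26.9 CPM with N6 and 516 ± 16.4 CPM with dT. Of 7 primitive endoderm markers tested, 2 were higher with N6 (background 7.38%) and 5 were not called. Those higher were Lama1, a laminin chain with a transcript of 9518 bases, at 1.59 ± 0.22, and Gata6, at 1.30 ± 0.23. Gata6 and Lama1 were no longer called under scaling by library totals. The markers of fibroblast feeders averaged 0.000140% of counts with N6 and 0.000170% with dT, and those of trophectoderm 0.00166% with N6 and 0.00452% with dT. N6 and dT libraries overlapped in both shares. None of the 2 feeder and 4 trophectoderm markers tested was called.

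For some of the 13 mitochondrially encoded mRNAs the difference depended on whether nuclear copies were counted with them. Alone, mt-Co2, a cytochrome oxidase subunit, had 5.69, 30.4 and 87.2 CPM in N6 libraries, against 2767, 2656 and 2833 CPM in dT libraries, a log2 fold change of -6.07 ± 0.97. Of the nuclear copy Gm28661 on chromosome 1, 100% of the 31-base words are also in mt-Co2, and its counts lay on the N6 side, at 3318, 3265 and 3019 CPM with N6 against 1.23, 0.125 and 0 CPM with dT. With that copy and a partial one summed in, mt-Co2 had 3326, 3299 and 3108 CPM with N6, against 2769, 2657 and 2834 CPM with dT (log2 fold change 0.24 ± 0.05). For mt-Atp6, mt-Co3 and mt-Nd3 the fold changes alone were -4.85, -2.22 and -3.94, and with their copies 0.14, -0.09 and 0.04, none of which passed the test. With copies summed, 9 of the 13 mRNAs were higher with N6 and 0 were lower, the highest being mt-Nd4l at 1.92 ± 0.14 and mt-Atp8 at 1.23 ± 0.11. Under scaling by library totals and without the copies, mt-Nd4l and mt-Atp8 stood at 0.81 and 0.12 and the other 11 lay below 0.

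**Figure D5:**
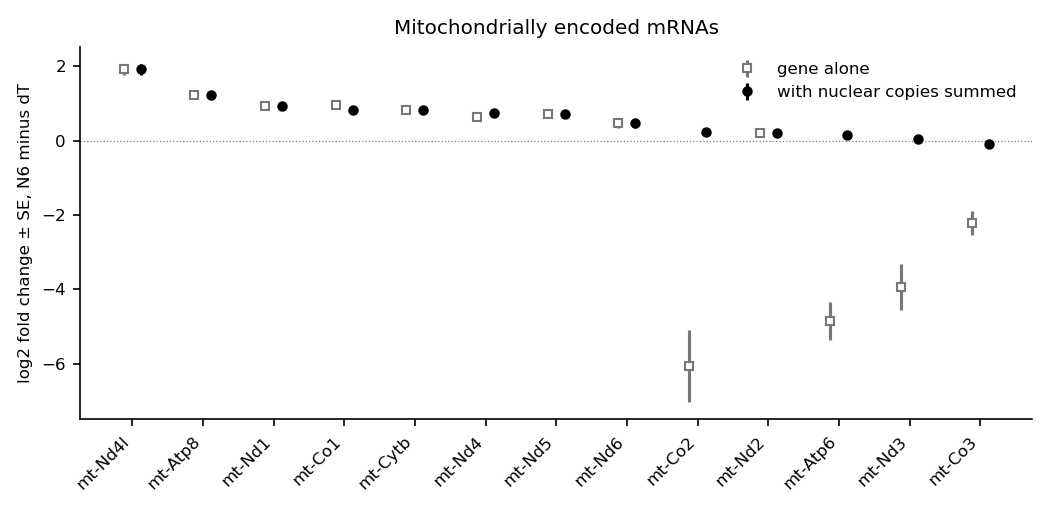
Log2 fold change (N6 minus dT) with its SE for the 13 mitochondrially encoded mRNAs, counted alone (open squares) and with nuclear copies summed in (filled circles). The 4 mRNAs called lower alone, mt-Co2 among them, lie between -6.07 and -2.22 alone and between -0.09 and 0.24 with copies.

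The spread between replicates was in most abundance ranges smaller with N6. For the 3704 genes averaging 10 to 30 CPM the median coefficient of variation was 0.368 with N6 and 0.436 with dT, and it was lower with N6 in 59.5% of them. For the 3445 genes at 3 to 10 CPM the medians were 0.596 with N6 and 0.788 with dT. At 300 to 1000 CPM, with 146 genes, the order was the other way, at 0.0831 with N6 and 0.0797 with dT. Genes are not independent replicates, and no test was made of these medians. The N6 values rested on fewer counts, since genes outside rRNA, mitochondria and the 7 loci held 33.6% of the smaller N6 totals and 73.1% of the larger dT totals.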

How the data were processed

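The values are estimated counts per transcript, as deposited by the authors, with no normalization stated in the file. Reads were converted with bcl2fastq 2.16.0.10 and the genome build was mm10, per the submitters' processing notes. For the aligner, quantifier and use of strand: not given in the sources used here. The series text speaks of fewer RT-RamDA samples than are listed.

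Counts were summed per gene over 115125 entries, 92 ERCC entries were left out, and sums were rounded. Genes were filtered with filterByExpr, TMM-scaled and tested with edgeR 4.0.16 (R 4.3.3) in 1 quasi-likelihood fit of all 5 primer sets, with the contrast N6 minus dT. Named genes were up to 12 per direction with a mean log2 CPM of at least 5 and groups that do not overlap, the 2 most abundant and the 2 of smallest p in each list, and a fixed set of markers. Others were chosen after their values were seen or are the exceptions behind a count: the 7 abundant loci, Hist1h3b, Hist1h2bf, Hist1h4f, Cenpf, Hk1, Pfkp, Snhg7, Snhg17, Lsm14b, Eif4g1 and Actn4. The members and lists were chosen with earlier results of these data known. Reference sequences matched 13101 tested genes (83.7%) by ID and length. The fit was tested on simulated data. Depth ran from 7625252 to 10134741 counts per library.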

Additional observations from a re-analysis of the deposited data

Results flagged for a closer look

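ERCC spike-in RNAs, which the labels used here do not mention and which enter no comparison above, had counts in all 6 libraries. They took 0.373 ± 0.00664% of counts with N6 and 0.371 ± 0.0148% with dT (SD, n = 3 each), which an exact two-sided permutation test did not separate (p = 0.9). For 21 spike-ins with at least 100 counts on average, the log2 ratio of N6 to dT ran from -1.60 to 1.45.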

How the results depend on the processing

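Against 1154 genes higher with N6, DESeq2 gave 2054, scaling to library totals 619, scaling to ERCC totals 606 and a fit of only the 6 libraries 547. Against 809 lower, library totals gave 3898 and ERCC totals 3948. Leaving out 1 library at a time gave 820 to 945 higher and 577 to 700 lower. With the plate row as a replicate block, 990 were higher and 728 lower. Residuals of same-row libraries correlated by 0.002, 0.008 and -0.012 over 7073 genes, which cannot exclude a row effect on some genes. Each primer set has its own well column in the library names, so primer and column cannot be told apart. The difference in median log2 fold change between transcripts over 8000 bases and those of 500 to 1000 bases was 2.37, became 1.125 without the filter on low counts, 2.598 by longest transcript and 2.591 at 10 CPM or more, and ran from 2.227 to 2.295 with a library left out. Retained-intron shares differed by -0.663 percentage points of all counts, by 0.0984 without rRNA and mitochondrial genes and by 2.655 without the 7 loci as well. Antisense shares differed by -0.0448, 0.0320 and 0.3146 points on the same bases. By library totals and by ERCC totals, Pou5f1 turned to -0.37 and -0.38, Lars2 to -0.82 and -0.83, Mki67 to -0.30 and -0.31, and Pfkp to -0.52 and -0.53. With copies summed, mt-Co2, mt-Atp6 and mt-Nd3 turned to 0.24, 0.14 and 0.0404. The ERCC scaling and the base without the 7 loci were chosen after seeing the data. The cause of these changes was not tested. Genes of few counts limit precision, and intervals between 3 libraries cover these reactions only.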
